A study of Mus musculus with 12 samples.

Results

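A group of 207 genes, called here the del-cIDR-low genes, was lowest in mouse embryonic stem cells with an Alkbh5 that lacks the disordered C-terminal region (del-cIDR). Relative to the library total, their mRNA lay below that of both wild-type cells (WT) and cells without Alkbh5 (KO). They were chosen from 56941 listed genes, of which 14851 had a mean of at least 1 CPM (reads of the gene per 1000000 reads in genes) over the 6 input libraries and are called measured. A gene was taken when its lowest value among the 4 WT and KO libraries was at least 1.4 times its higher value in the 2 del-cIDR libraries. The rule left out ENSMUSG00000005892, which would otherwise qualify. Because the choice used these values, the lower level in del-cIDR is a description and carries no test here. It also depends on the scale. With the values as deposited, both del-cIDR libraries lay below all WT and KO libraries for 72 of the 207 (34.8%), beside 1.01% of measured genes.

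The cells were E14TG2a, a mouse embryonic stem cell line, grown with serum, the cytokine LIF, the MEK inhibitor PD0325901 and the GSK3 inhibitor CHIR99021, which all 3 genotypes share. MeRIP-seq sequences fragmented polyA RNA after precipitation for m6A (IP) beside the RNA before precipitation (input), and the mRNA values come from the input. WT, Alkbh5 KO and Alkbh5 del-cIDR cells each gave 2 input and 2 IP libraries, 12 samples in all. The labels do not say whether a genotype is 1 clone or whether replicates came from separate cultures, so p-values measure only the spread between these libraries, which may be technical.

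Alkbh5 is a demethylase that removes the methyl group from N6-methyladenosine (m6A), the most common internal modification of mRNA. The mark is known to affect how long an mRNA lasts and how it is processed, and in embryonic stem cells it is known for its role in the exit from pluripotency. Intrinsically disordered regions are stretches of protein without a fixed fold that often decide where a protein gathers. The deposited table lists genes by identifier without symbols, and 0 identifiers matched the reference table used here. Gene roles, the embryonic stem cell markers, sequences and the m6A peaks of these genes were therefore not analysed here, and identifiers are printed for 6 of the 207 genes.

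The input libraries held 19918177 to 36678609 reads in genes, the fewest in del-cIDR replicate 2. Replicates of a genotype differed at least 1.4 times for 6.53% of measured genes in WT, 4.40% in KO and 7.73% in del-cIDR. Among the del-cIDR-low genes these counts were 12, 13 and 24 of 207. The reads of replicates differed by 3.02 to 6.50 times the sampling variance, so no library was a copy of another.

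The del-cIDR-low genes together took a smaller share of the reads in both del-cIDR libraries than in any other. Their values summed to 2068 and 2047 CPM in del-cIDR, while WT gave 3612 and 3826 and KO gave 4644 and 4534. The median gene had 3.26 and 3.11 CPM in the del-cIDR libraries. In WT it had 6.01 and 6.73, and in KO 7.55 and 7.45. Neither the sums nor the medians of the 3 genotypes overlapped, and KO lay above WT. Less RNA per cell and fewer cells that make it cannot be told apart in such bulk libraries.

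**Figure D1:**
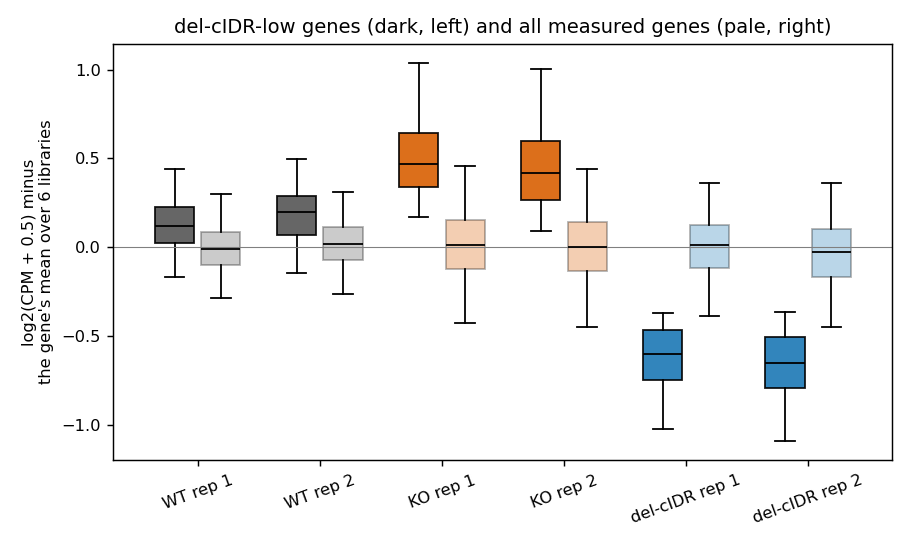
Each box shows 1 input library: the log2(CPM + 0.5) of each gene minus its mean over the 6 libraries, with the median, quartiles and 5th to 95th percentiles, for the 207 del-cIDR-low genes (dark) and the 14851 measured genes (pale). The dark boxes lie lowest in both del-cIDR libraries, which the choice of genes fixes, and lie higher in the KO than in the WT libraries. On the deposited scale the last order is the reverse.

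Most of the decreases were of moderate size. The ratio of the del-cIDR mean to the mean of the other 4 libraries had a median of 0.471, with quartiles at 0.376 and 0.542, from 0.164 to 0.656. It was at most 0.5 in 127 genes, at most 0.33 in 28 and at most 0.25 in 10. Against WT alone the median ratio was 0.530, and against KO alone it was 0.432. Over all measured genes these medians were 0.993 and 0.992.

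Many of these genes were sampled by few reads. The mean was under 5 CPM for 94 of the 207 (45.4%), against 24.5% of measured genes, and at least 100 for 5 genes (2.42%), against 17.8%. The median gene had 101 and 62 reads in the del-cIDR libraries and 151 to 277 in the others. In del-cIDR replicate 2, the shallowest library, 60 of the genes had under 25 reads and 9 had under 10. The labels name no molecular identifiers, so reads are not independent molecules.

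The limit of 1.4 does not mark a gap in the data. The 3 genes just inside it had ratios of the lowest other library to the higher del-cIDR library of 1.4022, 1.4031 and 1.4045. The 3 genes just outside had 1.3973, 1.3963 and 1.3945. The median ratio among the 207 genes was 1.57, and the highest was 4.41.

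Under the mirrored rule, 111 genes were higher only in del-cIDR, 496 were lower only in KO and 547 were higher only in KO. Another 55 were lower only in WT and 28 higher only in WT. By this count in CPM the del-cIDR cells had more genes on the low side than on the high side. The KO cells had more genes on either side. The KO counts depend on the scale. On the deposited scale both KO libraries lay above both WT libraries for only 136 measured genes, below the 547 counted here. Both WT libraries lay above both KO libraries for 13821.

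In the fit over all measured genes (limma on log2(CPM + 0.5), Benjamini-Hochberg adjusted p under 0.05), 180 of the 207 genes were called lower in del-cIDR than in WT, where 7.95% of all measured genes were. In del-cIDR against KO, 202 were called lower, where 22.8% of measured genes were. The rule used both contrasts, so nothing is read from these counts beyond which genes have a small spread. The median log2 difference was -0.75 against WT and -1.03 against KO, beside -0.01 for all measured genes in either. Without WT replicate 2, 118 of the genes were called lower than in WT, where 3.18% of measured genes were.

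ENSMUSG00000042650 had the largest log2 decrease against WT among the genes with a mean of at least 5 CPM. The WT libraries had 145 and 137 CPM, the KO libraries 55.5 and 57.8, and the del-cIDR libraries 29.7 and 36.9. The 3 genotypes did not overlap, and KO lay nearer to del-cIDR than to WT; on the deposited scale KO and del-cIDR overlapped (2514 and 1907 against 2549 and 1708). The log2 difference of del-cIDR from WT was -2.08 (SE 0.08). This is 1 of the 2 genes of the group that were also lower in KO than in WT, by -1.31 (SE 0.08).

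ENSMUSG00000047281 had the second largest decrease against WT. WT stood at 15.4 and 14.7 CPM, KO at 21.0 and 23.8, and del-cIDR at 4.07 and 4.42. Its order was del-cIDR lowest, WT between and KO highest, with no overlap, but on the deposited scale KO lay below WT by a log2 difference of -0.34. The log2 difference from WT was -1.72 (SE 0.12).

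ENSMUSG00000066652 had the largest decrease against KO. The del-cIDR libraries had 20.7 and 20.1 CPM, the WT libraries 48.1 and 43.2, and the KO libraries 202 and 203. Both steps of this order were large beside the spread of the replicates. The log2 difference of del-cIDR was -3.28 from KO (SE 0.07) and -1.14 from WT (SE 0.07). KO lay above WT by 2.14 (SE 0.07), and by 1.22 on the deposited scale.

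ENSMUSG00000037860 came next against KO, with del-cIDR at 9.75 and 8.74 CPM, WT at 19.6 and 21.2, and KO at 53.8 and 48.2. WT lay between the others without overlap, as it did on the deposited scale. The log2 difference from KO was -2.40 (SE 0.10).

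**Figure D2:**
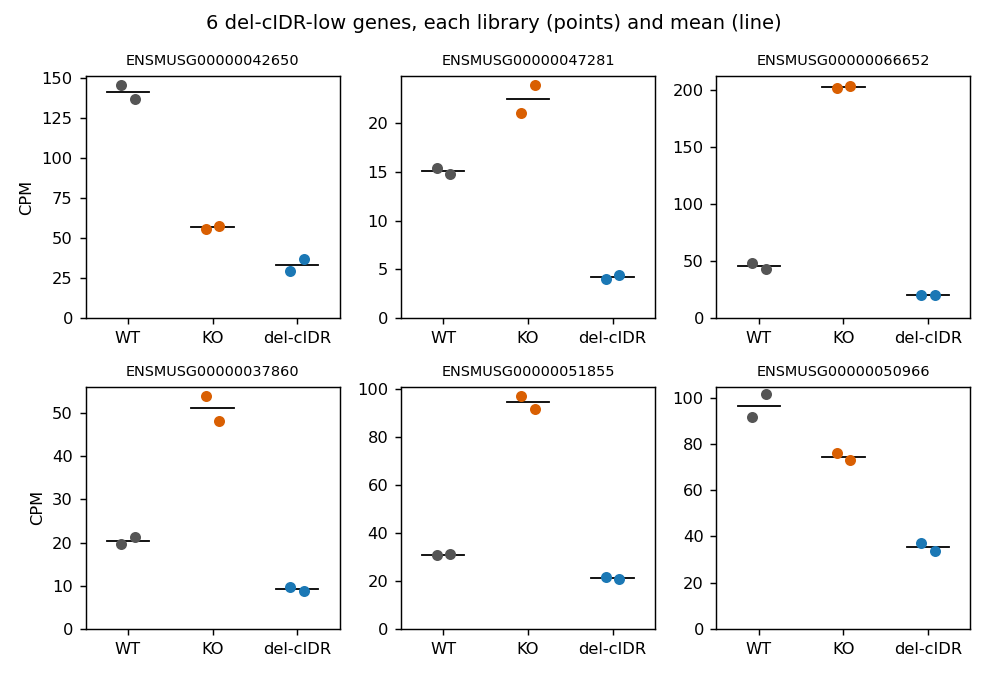
Values in CPM in each input library (points, 2 per genotype) and the genotype mean (line) for the 6 genes printed by identifier, with axes that start at 0. ENSMUSG00000042650 and ENSMUSG00000050966 are highest in WT, and the other 4 are highest in KO. On the deposited scale ENSMUSG00000047281 is highest in WT, where KO minus WT is -0.34 on the log2 scale, and the order of the means is the same for the other 5.

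The values of KO and WT are those the rule used, so their difference in these genes is also a description with no test. The rule sets 1 floor under both genotypes, and KO differed more widely from del-cIDR than WT did. Over all measured genes, the quartiles of the del-cIDR to KO ratio were 0.831 and 1.16, and those of the del-cIDR to WT ratio were 0.894 and 1.09. Such a floor can favour genes with KO above WT. How far it does so here was not tested, and nothing about the group is read from the following counts. Of the 207, 77 (37.2%) were called higher in KO than in WT, where 15.6% of measured genes were, and 2 (0.966%) lower, where 14.7% were (limma, adjusted p under 0.05). The median log2 difference of the 207 was 0.25, beside 0.00 for all measured genes, and -0.55 beside -0.88 on the deposited scale. Both KO libraries lay above both WT libraries for 134 of the genes (64.7%), where 34.4% of measured genes did so. Both WT libraries lay above both KO libraries for 12 (5.80%), where 33.6% did so.

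The number called higher in KO depended on single libraries. It was 51 without WT replicate 1, 48 without KO replicate 1 and 50 without KO replicate 2, where 10.4%, 9.22% and 9.55% of measured genes were called higher. The smallest two-sided p of an exact permutation test of 2 libraries against 2 is 0.333, so the calls rest on the spread borrowed across genes.

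**Figure D3:**
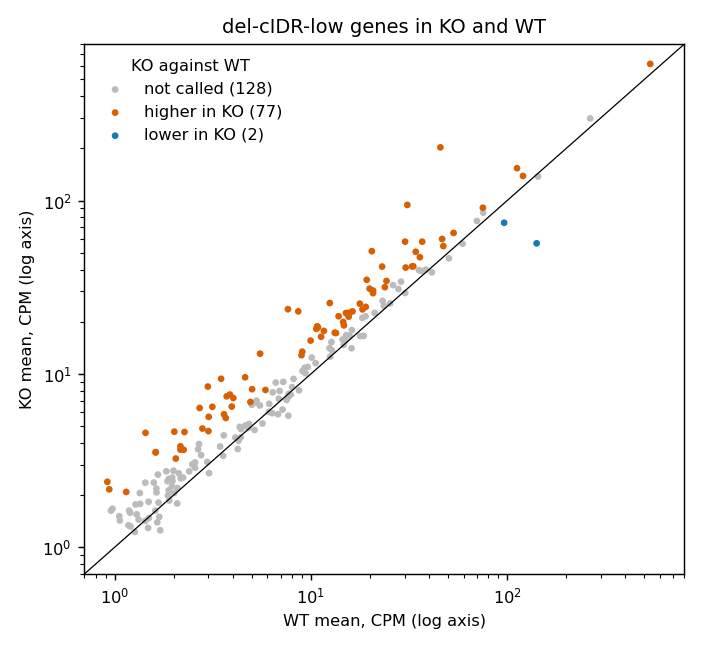
Mean CPM in KO against WT for the 207 del-cIDR-low genes, both axes logarithmic, n = 2 libraries each; the line marks equal values and colours the limma calls. There are 77 genes called higher in KO, 2 called lower and 128 not called. On the deposited scale 0 were called higher and 1 lower, beside 0.0539% and 3.76% of measured genes.

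In 39 of the genes (18.8%) the steps between all 3 genotypes were at least 1.4 times, with del-cIDR lowest, WT between and KO highest in every library. The step from WT to KO alone was found in 4.79% of measured genes. In 11 of the 39, both KO libraries lay above both WT libraries on the deposited scale as well. Of the 712 measured genes with the step from WT to KO, 136 did so (0.916% of measured genes). These 39 are also 7.13% of the 547 genes higher only in KO under the mirrored rule. Their KO to WT ratio ran from 1.48 to 4.44 with a median of 1.99. The opposite arrangement, with WT at least 1.4 times KO and KO above del-cIDR, was found in 1 gene, ENSMUSG00000042650. A WT level at least 1.4 times KO was by itself found in 4.71% of measured genes.

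ENSMUSG00000051855 had the second largest difference of KO above WT among the genes with a mean of at least 5 CPM. KO had 97.1 and 91.6 CPM, WT 30.8 and 31.2, and del-cIDR 21.8 and 20.7. The step from WT to KO was larger than that from del-cIDR to WT, an order that turns on the deposited scale. KO was above WT by a log2 difference of 1.59 (SE 0.08). With the deposited scaling KO differed from WT by 0.67 and del-cIDR from WT by -0.75.

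ENSMUSG00000050966 was the other gene called lower in KO than in WT. WT had 91.5 and 101 CPM, KO 76.0 and 72.9, and del-cIDR 37.2 and 33.7. The 3 genotypes did not overlap, and the del-cIDR libraries lay farther below KO than KO lay below WT. KO was below WT by a log2 difference of -0.37 (SE 0.07). Both statements turn on the deposited scale, where KO (3441 and 2407) and del-cIDR (3192 and 1562) overlapped, KO differed from WT by -1.29 and del-cIDR from KO by -0.36.

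The deposited values are scaled by 1 factor per library. The factors are in inverse proportion to whole numbers: 427 and 602 in WT, 1031 and 1273 in KO, 459 and 547 in del-cIDR. Read as input reads of the m6A control listed with the peaks, they would make this a scale set by 1 control RNA. That reading was not tested. On the deposited scale the group looks different. The median log2 difference of all measured genes was then -0.22 for del-cIDR against WT, 0.66 for del-cIDR against KO and -0.88 for KO against WT. Against those shifts the del-cIDR-low genes had medians of -0.94, -0.41 and -0.55. All 207 genes were below both WT libraries in both del-cIDR libraries, as were 11.9% of measured genes. Of these, 72 (34.8%) were also below both KO libraries, where 1.01% of measured genes lay below both genotypes, and 28 (13.5%) still met the 1.4 rule, where 0.263% did. The limma fit then called 1 of the 207 lower against WT and 5 lower against KO, with 2 and 12 such calls among all measured genes. The del-cIDR mean was still below the KO mean on this scale in 190 of the 207 genes (91.8%), as it was in 6.51% of measured genes, while the libraries of most of them overlapped.

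The del-cIDR-low genes were not spread evenly along the deposited table. The order of its rows is not stated in the sources used here, and the blocks below were chosen after the values were seen, so they carry no test. Rows 13401 to 13800 were picked for holding the most of the 207 genes among stretches of equal length. The other blocks were picked for low values of the other genes in del-cIDR against KO, a contrast the rule used. Both choices favour a high share of the group. Of the 207 genes, 76 (36.7%) lay in 3 blocks that hold 11.3% of the measured genes. Elsewhere 0.994% of measured genes belonged to the group.

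The densest stretch was rows 13401 to 13800, where 20 of 154 measured genes (13%) belonged to it. The other 134 genes there had median log2 differences near 0, of -0.0049 for del-cIDR against WT and -0.02 for KO against WT. The 20 genes had a median of -0.83 for del-cIDR against WT. This stretch held 4 of the 5 genes with a mean of at least 100 CPM. The gene with the most reads had del-cIDR values of 333 and 348 CPM, WT values of 531 and 541, and KO values of 624 and 604. The gene ranked next had del-cIDR values of 142 and 136 CPM, WT values of 241 and 288, and KO values of 299 and 296. For these 4 genes the del-cIDR mean was 0.636, 0.525, 0.631 and 0.648 times the WT mean, in order of their level. ENSMUSG00000047281 and ENSMUSG00000050966 lay in the same stretch.

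Rows 20001 to 23000 held 18 of the genes among 638 measured (2.82%), and rows 30001 to 33000 held 38 among 886 (4.29%). Both blocks were picked by the genes outside the group. They are the runs of 1000-row windows where the median of those genes for del-cIDR against KO fell below a set limit. A shift of those genes was thus fixed by the choice. The median log2 difference of the genes outside the group was -0.09 and -0.16 for del-cIDR against WT, and 0.32 and 0.26 for KO against WT. In KO against WT, 54.8% and 49.4% of them were called higher by limma, and 4.68% and 4.48% lower. On the deposited scale the shift of all genes, -0.88, is larger than these rises. The del-cIDR-low genes there had medians of -0.74 and -0.71 for del-cIDR against WT, and 11 of 18 and 11 of 38 were called higher in KO. ENSMUSG00000051855 lay in rows 20001 to 23000. Its log2 difference of KO from WT was 1.59, beside the median of 0.32 for the genes outside the group there. Whether the 2 are linked was not tested. What part of the lower values the blocks account for was not tested.

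Outside the 3 blocks lay 131 of the genes, ENSMUSG00000042650, ENSMUSG00000066652 and ENSMUSG00000037860 among them. Their median log2 difference of del-cIDR was -0.76 from WT and -1.04 from KO, where the genes outside the group had 0.00 and 0.02. Relative to the library total, 47 of the 131 were called higher in KO than in WT and 1 lower (limma), beside 11.3% and 16.1% of the other genes outside the blocks. On the deposited scale 0 of all 207 were called higher (limma, with 1 at an unadjusted p under 0.05), beside 0.0539% of measured genes. The median KO difference from WT was 0.28 in the 131 genes, 0.19 in rows 13401 to 13800, 0.62 in rows 20001 to 23000 and 0.20 in rows 30001 to 33000. Of the 39 genes with all 3 steps, 22 lay outside the blocks and 11 in rows 20001 to 23000.

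**Figure D4:**
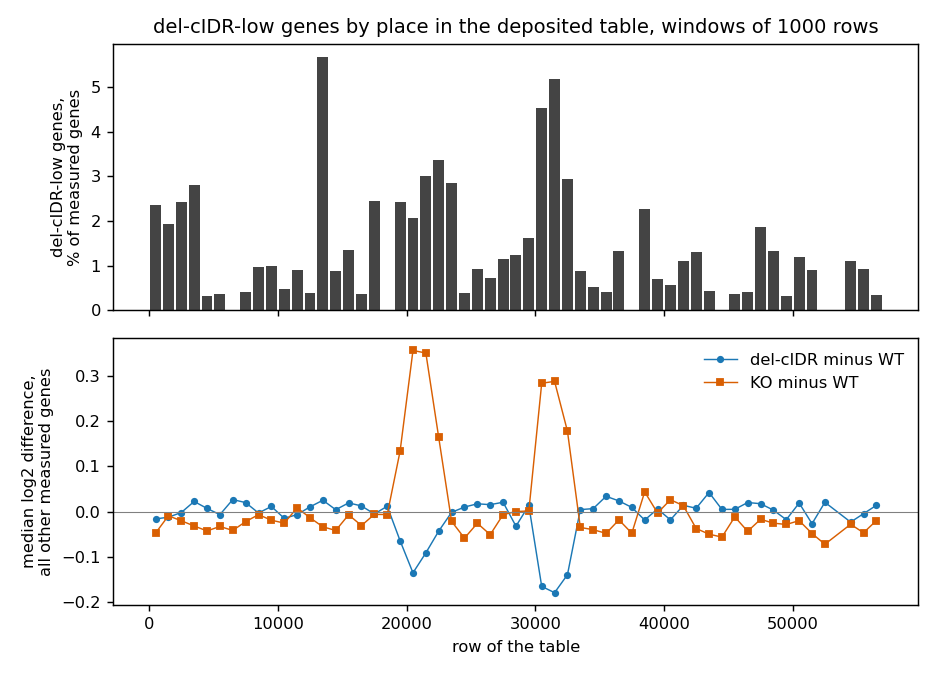
Upper panel: the del-cIDR-low genes as a percentage of measured genes in windows of 1000 rows of the deposited table. Lower panel: the median log2(CPM + 0.5) difference of the other measured genes, del-cIDR minus WT (circles) and KO minus WT (squares). The window at rows 13001 to 14000 is high in the upper panel and near 0 in the lower. Rows 20001 to 23000 and 30001 to 33000 stand apart in the lower panel. In the upper panel rows 20001 to 23000, at 2.06% to 3.37%, overlap windows elsewhere, such as rows 23001 to 24000 at 2.86%. On the deposited scale all differences shift by the values given in the text.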

How the data were processed

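Fragmented polyA RNA was made into libraries with a stranded total RNA kit, per the labels' protocols. Per the submitters' processing notes, the build was GRCm39 and the tools included HISAT2, featureCounts, MACS2, bedtools, Picard, SAMtools and fastp, with no roles or versions. The mRNA table deposited by the authors holds a signal: whole reads of each gene multiplied by a library factor (1 to 2.98). This was read from the values, of which 100% came out whole (tolerance 0.001 reads). For KO replicate 2 the deposited values are counts. The deposited m6A values are a ratio of IP over input per peak. They could not be assigned to genes, so the planned m6A comparisons and the 24 gene lists fixed by symbol were not run.

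Each library was divided by its total and multiplied by 1000000 (CPM), since the member rule is set on that scale. In R 4.3.3, limma 3.58.1 took log2(CPM + 0.5) of genes with a mean of at least 1 CPM, all 3 genotypes together, with an eBayes trend and Benjamini-Hochberg adjustment at 0.05. Fold changes on this scale understate those of low genes. As alternatives, the recovered reads went through DESeq2 1.42.0 and the quasi-likelihood test of edgeR 4.0.16 with TMM scaling. The fit was also run on simulated data with 1 set spread for all genes and changes only in genes with a mean of at least 5 CPM. That run does not cover the 94 genes of the group under 5 CPM. Identifiers printed are, among genes with a mean of at least 5, the 2 with the lowest difference in each del-cIDR comparison and the 2 largest calls in each direction for KO against WT. The rule fixed for named genes needed symbols, so this one was set after values were seen. The members and lists were chosen with earlier results of these data known. Plots were made with Python 3.11.15 and matplotlib 3.10.9.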

Additional observations from a re-analysis of the deposited data

How the results depend on the processing

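With other pseudocounts and TMM scaling, 176 to 181 of the del-cIDR-low genes were lower than in WT, 202 lower than in KO and 74 to 79 higher in KO than in WT. Of measured genes, 7.8% to 7.98%, 22.4% to 22.9% and 15.4% to 16% were called in these settings. With no filter these counts were 124, 192 and 55, where 1.75%, 9.08% and 5.73% of genes tested were called. With only the compared genotypes they were 160, 202 and 83 (6.03%, 23% and 17.7% of measured genes). With edgeR, 176 of the del-cIDR-low genes were lower in del-cIDR than in WT and 203 lower than in KO, and 81 were higher in KO than in WT (7.55%, 22.3% and 16.5% of measured genes); with DESeq2 these were 137, 196 and 66 (5.84%, 18.7% and 13.4%). With a mean of at least 5 CPM, 113 of the 207 genes could be tested, and all 113 were called in both del-cIDR comparisons. Of the 11214 genes tested at this filter, 9.51% and 25.1% were called lower in these comparisons. In KO against WT, 52 of the 113 were called higher and 2 lower, beside 17.5% and 16.5% of genes tested. With the deposited scaling, 1 gene was lower than in WT, 5 lower than in KO, 0 higher in KO and 1 lower. Of measured genes, 0.0135%, 0.0808%, 0.0539% and 3.76% were called. The medians were then -0.94 against WT, -0.41 against KO and -0.55 for KO against WT, the last reversed in sign. Against WT the median was -0.89 with a pseudocount of 0.1, -0.67 with 1, -0.90 with edgeR and -0.90 with DESeq2. Against KO it was -1.16, -0.93, -1.19 and -1.19 in the same order. Leaving out 1 library gave 118 to 165 genes lower than in WT (3.18% to 9.54% of measured genes), 182 to 202 lower than in KO (15.6% to 23%), 48 to 82 higher in KO than in WT (9.22% to 17.7%) and 2 to 3 lower (7.97% to 17%).

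With a replicate block, 178 genes were lower than in WT, 202 lower than in KO, 73 higher in KO and 2 lower (7.66%, 22.4%, 15.2% and 14.3% of measured genes). Deviations of same-numbered libraries correlated at -0.119 between WT and KO, -0.111 between WT and del-cIDR and 0.116 between KO and del-cIDR; exchanging the WT numbers makes all 3 positive. A crossed replicate block with the WT numbers exchanged, added after the data were seen, gave 191, 203, 82 and 2 genes (11.6%, 25.4%, 18.5% and 18.2% of measured genes), with 1728 measured genes lower in del-cIDR than in WT against 1180 without a block. No label says which libraries were handled together. For the printed genes, 4 calls were lost, all with the deposited scaling, and none of the printed test results turned its sign. The m6A alternatives were not run. Depth limits the lowest genes most, with 4 reads for the least sampled one in del-cIDR replicate 2.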

Other observations

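The m6A table gives chromosomes, and its ratios hold the input reads behind each peak. Dividing out 1 constant per library left a quotient of integers, to within a relative difference of 1e-10, for 98.5% to 99.6% of the peaks. Among the constants that left such quotients for the most peaks, the choice went by how often small numbers divided their terms. Whether it is the true constant was not tested. If it is, the denominator in lowest terms is the input reads or a whole fraction of them. After centring each library on its median peak, the median log2 difference in these denominators between del-cIDR and KO was -0.54 over 587 peaks on chromosome 6 and -0.42 over 781 peaks on chromosome 8 (GRCm39). On the other 18 chromosomes with at least 100 peaks it lay between -0.11 and 0.15. For KO against WT it was 0.40 on chromosome 6 and 0.26 on chromosome 8, against -0.19 to 0.07 elsewhere. For del-cIDR against WT it was -0.16 and -0.18, against -0.17 to 0.12. These are the same input libraries as those of the mRNA values. The genes in rows 20001 to 23000 and 30001 to 33000 that are outside the group differed by -0.42 and -0.43 between del-cIDR and KO. Those rows were picked by this same difference. Whether those rows hold genes of these chromosomes was not tested. The chromosomes were singled out after the values were seen, also by their difference between del-cIDR and KO.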
